A study of Mus musculus with 2 samples.

Results

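The heat shock genes are a set of 10 molecular chaperones and co-chaperones, described here in donor T cells of the mouse colon during graft-versus-host disease, the attack of transplanted T cells on a recipient. The members are Hspa1a, Hspa1b, Hsph1, Dnajb1, Dnaja1 and Hsp90aa1, counted as inducible, and Hsp90ab1, Hspd1, Hspe1 and Hspa8, counted as constitutive. They are 10 of the 31053 genes of the count matrix, of which 16464 had a count in a kept cell, and all 10 were measured. The members were chosen with their levels by cell class and with the other genes of Hspa1a-positive cells already known, so every value below is a description and none is a test.

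The cells came from Balb/c recipients, lethally irradiated, that were given C57BL/6 bone marrow (5e+06 cells) and spleen cells holding 8e+05 alpha beta T cells. On day 21 the colons of 5 mice were dissociated with a lamina propria kit and pooled, and cells positive for H2-Kb, a class I molecule of the donor strain, and for TCR beta were sorted. Their cDNA was read as 1 droplet RNA library of 5′ transcript ends (10x Genomics) and 1 library of T cell receptors (TCR). The pool is thus 1 sample, and no untreated or ungrafted group stands beside it. The spread between mice is unknown, no p-value was computed, and each interval below is a 95% interval that covers counting error only.

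Heat shock proteins hold unfolded proteins and help them fold. HSPA8 (Hsc70) and HSPA1 (Hsp70) are ATP-driven chaperones of the same family; DNAJB1 and DNAJA1 are Hsp40 co-chaperones that bring them clients and trigger their ATPase, and HSPH1 (Hsp110) is a nucleotide exchange factor for them. HSP90AA1 and HSP90AB1 are the inducible and the constitutive form of cytosolic Hsp90, which matures kinases and other signalling proteins, and HSPD1 and HSPE1 (Hsp60 and Hsp10) form the folding chamber of mitochondria. When cells meet heat or other protein damage, the factor HSF1 binds heat shock elements, which are repeats of the unit nGAAn in alternating orientation, and switches the inducible genes on. In T cells these genes also respond to activation and to tissue handling, such as warm enzymatic dissociation.

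The upstream bases of these genes are shown because the members are grouped by a shared regulator and because 2 of them can hardly be told apart. RefSeq (GRCm38.p6) gave a promoter entry for 7 of the 10 members, and 250 bases upstream of each listed start were searched on both strands for a pair of inverted units, GAANNTTC or TTCNNGAA. These searches count any overlap with a neighbouring pair. A pair was found for 6 of the 7 members, in 7 of their 12 windows, some of which overlap, and in 12.8% of all 32817 promoter windows of the same length. Capitals mark the units:
Hspa1a, chr17:34972242-34972271, minus strand: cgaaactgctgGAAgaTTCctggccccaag
Hspa1b, chr17:34959324-34959353, minus strand: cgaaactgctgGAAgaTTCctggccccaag
Hsph1, chr5:149636351-149636380, minus strand: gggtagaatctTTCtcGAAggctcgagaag
Dnaja1, chr4:40722333-40722362, plus strand: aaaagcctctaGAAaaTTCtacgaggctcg
Hspe1, chr1:55088053-55088082, plus strand: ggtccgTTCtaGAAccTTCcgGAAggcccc
The Hspa1a and Hspa1b stretches are identical and span bases -115 to -86 from the start in both. Over the whole 250 bases upstream the neighbours differed at 3 positions and were 98.8% identical. The last stretch holds 4 units in a row and is shared by a pair of genes that are read in opposite directions: it lies upstream of Hspe1 and, on the other strand, of 1 of the 2 listed starts of Hspd1. The Dnaja1 stretch is upstream of 1 of its 3 listed starts. At least 3 units in a row were found in 0.466% of all windows. No such pair was in the windows of Dnajb1, which shows only that these letters are not there. Hsp90aa1, Hsp90ab1 and Hspa8 had no entry.

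In the GENCODE annotation of the mm10 assembly, Hspa1a lies at chr17:34969190-34972156 and Hspa1b at chr17:34956436-34959238, each a gene of 1 exon on the minus strand. In the first 500 transcript bases, 49.6% of 411 windows of 90 bases were the same in both transcripts. Reads from such windows match both genes, and whether they were left out or assigned to 1 gene was not examined. The counts of Hspa1a and Hspa1b may thus be too low, and their division is uncertain. Windows shared with other annotated genes made up 31.4% for Hsp90aa1, 23.4% for Dnaja1 and 16.3% for Hspe1, at most 5.84% for Hspa8 and Hspd1, and 0 for Hsph1, Dnajb1 and Hsp90ab1.

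The matrix held unique molecular identifier (UMI) counts, each UMI standing for 1 captured transcript. Of 5348 barcodes, 5333 with at least 500 genes and at most 10% mitochondrial UMIs were kept. They held 2549 to 39138 UMIs, with a median of 4800. Although the titles name CD4 T cells, 1861 kept cells had Cd4 without Cd8a or Cd8b1 UMIs (CD4 class) and 2391 the reverse (CD8 class), with median depths of 4768 and 4910 UMIs. A further 301 cells had both and 780 had neither. Levels are UMIs per 10000 UMIs of all cells of a class, and because each transcript is tagged at its 5′ end they are not divided by gene length. Shares of cells were taken after 2000 UMIs had been drawn from each cell, so that they do not follow depth. No cell class here is known to lack these genes, so a background share from free RNA could not be set.

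The members ranged in level from near-universal housekeeping chaperones to genes seen in few cells. Hspa8, the constitutive Hsp70, had the highest level, 24.9 UMIs per 10000, and was found in 98.4% of cells. Hsp90ab1 followed at 21.5 (Poisson interval 21.3 to 21.6) and was found in 94.6%. Each other member was at a level well below this pair. Hsp90aa1 stood at 3.72 (3.66 to 3.79) and Dnaja1 at 3.38 (3.32 to 3.44), found in 41.5% and 47.4% of cells. The mitochondrial pair stood at 2.75 (2.69 to 2.81) for Hspe1 and 1.49 (1.45 to 1.53) for Hspd1. Dnajb1 had 1.05 (1.02 to 1.09), Hsph1 0.383 (0.362 to 0.404), Hspa1a 0.318 (0.299 to 0.338) and Hspa1b 0.0893 (0.0793 to 0.100). No neighbours in this order had overlapping intervals. These leave out any loss of reads from windows shared with other genes, which differ in number between the members. In the share of cells, Dnaja1 stood above Hsp90aa1 although its level was lower, so their order is not read from shares.

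**Figure D1:**
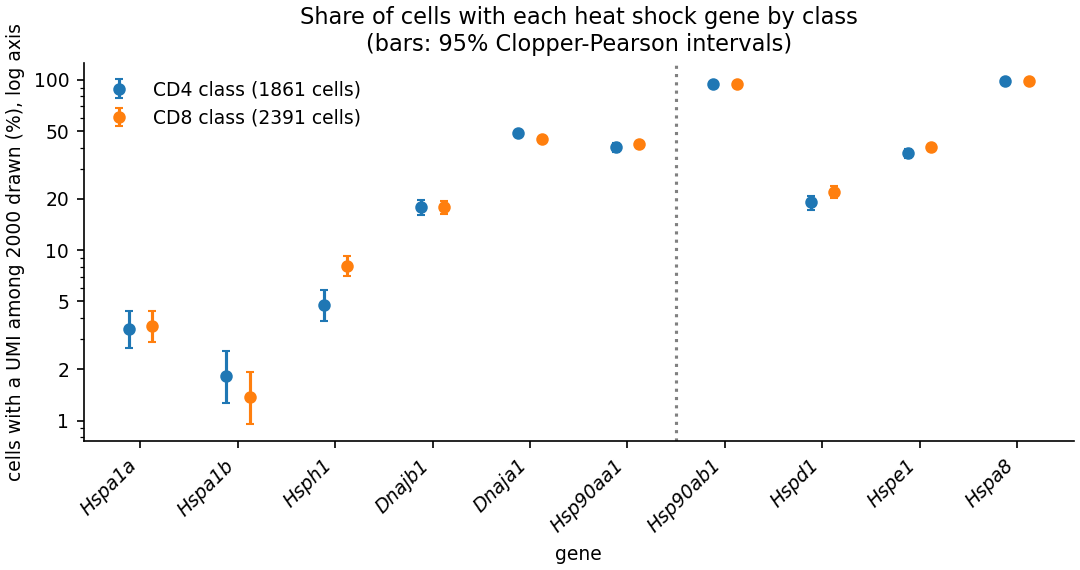
Share of CD4 class (1861 cells) and CD8 class (2391 cells) cells with at least 1 UMI of each gene among 2000 UMIs drawn per cell, in percent on a log axis. Points are shares and bars are 95% Clopper-Pearson intervals; the dotted line parts inducible (left) from constitutive genes. Hspa1a was found in 3.44% of CD4 and 3.60% of CD8 class cells, and Hspa8 in 98.1% and 98.7%.

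Hspa1a was detected in few cells and was abundant in some of them. It was found in 187 of 5333 thinned cells, 3.51% (Clopper-Pearson interval 3.03 to 4.04), and in 307 cells, 5.76%, without thinning. Since the share follows depth, a cell with no UMI is not shown to lack the transcript. Of these 307 cells, 117 held a single UMI and 15 held 10 or more, and the highest cells held 33, 29 and 23. The 50 cells with most Hspa1a UMIs, each with at least 6, held 49.3% of the 1041 UMIs of the gene, and the highest cell held 3.17%. The corresponding 50 cells held 42.8% of the Hspa1b UMIs, 19.1% for Hsph1, 12.8% for Dnajb1, 14.1% for Hsp90aa1 and 6.07% for Dnaja1. Among constitutive members they held 15.7% for Hspd1, 9.08% for Hsp90ab1, 8.89% for Hspe1 and 4.97% for Hspa8. This share also depends on how many UMIs a gene has, and no value expected from counting was set beside it, so it is not compared between genes. The variance of the drawn counts over their mean, which is 1 for independent counting, was 4.04 for Hspa1a, 1.91 for Dnajb1, 1.69 for Hsp90aa1, 1.40 for Hspa1b, 1.39 for Dnaja1 and 1.31 for Hsph1. Among constitutive members it was 1.83 for Hsp90ab1, 1.62 for Hspa8, 1.15 for Hspd1 and 1.12 for Hspe1. This value also depends on the mean drawn count, which ran from 0.0206 for Hspa1b to 4.97 for Hspa8. It is therefore not compared between genes or between the inducible and constitutive members.

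**Figure D2:**
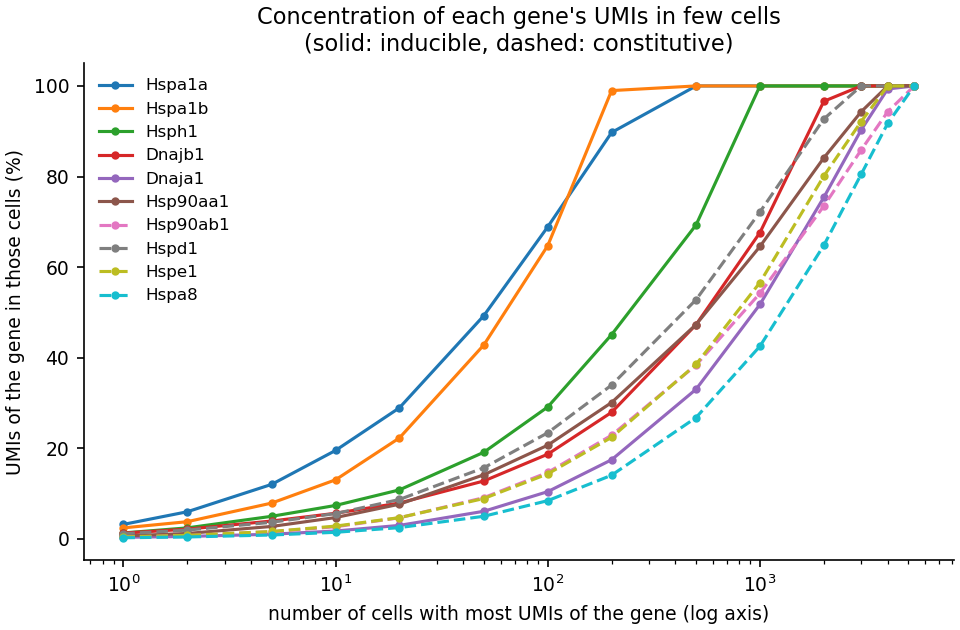
Percent of each gene's UMIs that lie in the cells with most of them, against the number of those cells on a log axis, over 5333 kept cells; solid lines are inducible and dashed lines constitutive genes. The lines of Hspa1a and Hspa1b rise first, with 49.3% and 42.8% of UMIs in 50 cells, and that of Hspa8 last, with 4.97%.

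The 50 highest Hspa1a cells were not of 1 kind. They comprised 17 CD4 class, 22 CD8 class, 8 double-marked and 3 unmarked cells and came from 11 of 14 clusters. None carried 2 or more macrophage markers. Their median depth was 6397 UMIs and their median mitochondrial share 1.95%, and 60% of them had a Hspa1b UMI. The 18 of them with a resolved TCR belonged to 16 clonotypes.

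Between CD4 and CD8 cells the heat shock genes differed little. None of the 10 members reached a 1.5-fold ratio with an interval clear of 1 in either direction, where 7.70% of 10133 genes with at least 50 UMIs were that much higher and 6.55% that much lower in the CD4 class. Hsph1, the Hsp110 exchange factor, came nearest, at 0.310 UMIs per 10000 in the CD4 and 0.439 in the CD8 class, a ratio of 0.705 (binomial interval 0.617 to 0.805). It was found in 4.78% (3.86 to 5.85) of CD4 and 8.11% (7.05 to 9.28) of CD8 class cells. Among constitutive members, Hspd1 had a CD4 to CD8 ratio of 0.834 (0.781 to 0.889), and Hspe1, Hspa8 and Hsp90ab1 lay at 0.909, 0.910 and 0.935. Dnaja1 had the opposite direction, with a ratio of 1.09 (1.04 to 1.13). In Hspa1a, Hspa1b and Dnajb1 the interval held 1, at ratios of 0.969 (0.839 to 1.12), 0.995 (0.749 to 1.32) and 1.01 (0.938 to 1.09). Hsp90aa1 was 1.05-fold (1.01 to 1.10) higher in the CD8 class. In all, the interval lay below 1 for 6 members and above 1 for 1, beside 24% and 19.3% of all genes tested. Intervals that hold 1 do not show that the classes are alike, and they leave out any spread between cells beyond counting.

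Summed over genes, the constitutive members stood at 48.4 UMIs per 10000 in the CD4 and 52.7 in the CD8 class, and the inducible members at 8.70 and 8.73. The sums also varied between cells. The middle cells by rank, between the lower and upper quartile, held 35.4 to 56.9 constitutive UMIs per 10000 and 4.01 to 11.1 inducible ones, and the highest inducible sum of any cell was 191. The median log2 CD4 to CD8 ratio was -0.14 over the constitutive and -0.03 over the inducible members, beside -0.04 over all genes tested. When each clonotype was cut to 1 cell, Hspa1a had a log2 ratio of -0.57 (-1.18 to 0.02), beside -0.046 in all cells, and its interval still held 0. The cause of this shift was not tested.

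Several heat shock genes were found more often in cells with Hspa1a than in other cells. Hspa1b was found in 20.3% (14.8 to 26.8) of the 187 Hspa1a-positive cells, which had an Hspa1a UMI among those drawn, and in 1.05% (0.789 to 1.37) of the negative cells. Given their shared reads, this pair may not be independent. Hsph1, which shares no window, was found in 23.5% (17.6 to 30.3) of the positive and 6.04% (5.41 to 6.73) of the negative cells, and Hsp90aa1 in 62.6% (55.2 to 69.5) and 40.7% (39.3 to 42.0). The constitutive mitochondrial pair went the same way, with Hspe1 in 51.3% (43.9 to 58.7) and 38.7% (37.4 to 40.1) and Hspd1 in 29.4% (23.0 to 36.5) and in a share with an interval of 18.9 to 21.1%. For inducible Dnaja1 the intervals overlapped, at 54.5% (47.1 to 61.8) and 47.1% (45.7 to 48.5). Of the 4 genes Hspa1a, Hspa1b, Hsph1 and Dnajb1, none was found in 3974 cells, exactly 1 in 1187, 2 in 135, 3 in 29 and all 4 in 8 cells. Across cells the Pearson correlation of log levels was 0.42 for Hspa1a with Hspa1b and between 0.01 and 0.21 for the other 44 pairs, and its median was 0.11 over the 15 inducible and 0.12 over the 6 constitutive pairs. All these points share 1 library and its depth, and the counts are sparse.

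The levels of several inducible members were graded with the number of Hspa1a UMIs. To keep the measure apart from the draw, levels were taken from the UMIs that had not been drawn, over cells with 0, 1, 2 to 3 and 4 to 9 drawn Hspa1a UMIs (5146, 108, 55 and 22 cells). Hsp90aa1, the inducible Hsp90, stood at 3.76, 6.73, 10.5 and 23.4 UMIs per 10000, the last with an interval of 20.2 to 27.0. Dnajb1 stood at 0.965, 1.97, 3.09 and 5.41 (3.93 to 7.27). Hsph1 stood at 0.339, 1.16, 1.84 and 2.95 (1.89 to 4.39). Each step of these 3 genes was upward, although neighbouring intervals overlapped for Hsph1 and Dnajb1 above 0.

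**Figure D3:**
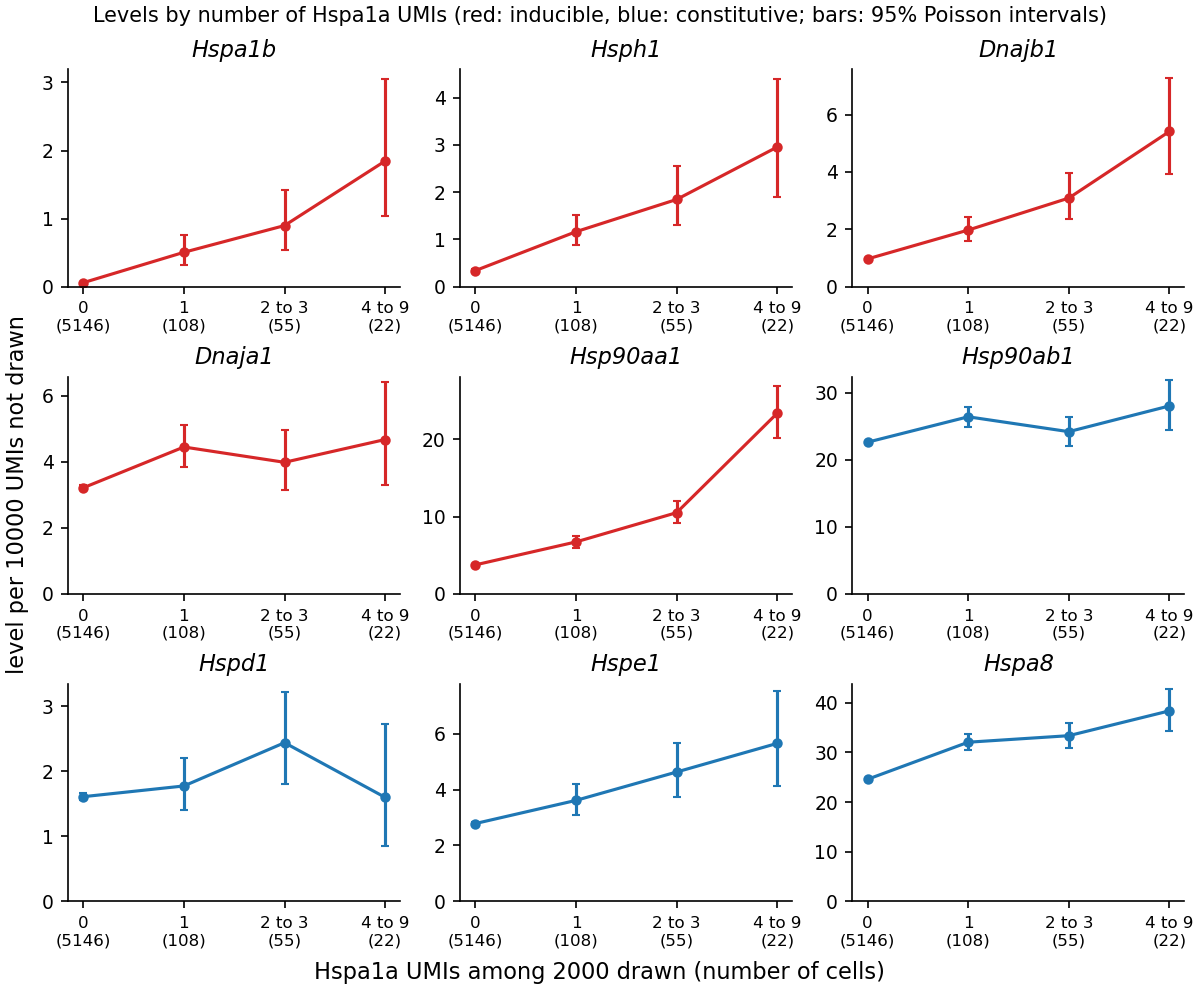
Level of 9 heat shock genes per 10000 undrawn UMIs (vertical axes, each from 0) against the number of Hspa1a UMIs among 2000 drawn, with the number of cells below each group; bars are 95% Poisson intervals. Hsp90aa1 stands at 3.76 without Hspa1a and at 23.4 with 4 to 9 UMIs, and Hsp90ab1 at 22.6 and 28.1.

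Few cells carried the top group. In it, 1 cell held 32.6% of the Hsp90aa1, 45.5% of the Dnajb1 and 50% of the Hsph1 UMIs, and these were found in 12, 10 and 5 of its 22 cells. Only 2 cells had 10 or more drawn Hspa1a UMIs, with 30.2 Hsp90aa1 UMIs per 10000 (17.3 to 49.0). The constitutive genes showed smaller gradients. Hspa8 stood at 24.6, 32.1, 33.4 and 38.4 and Hspe1 at 2.79, 3.62, 4.63 and 5.66, whereas Hspd1, its partner in mitochondria, stood at 1.61, 1.78, 2.44 and 1.60. Dnaja1, counted as inducible, had 3.21, 4.45, 3.99 and 4.68, with no order above 0.

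Set against the rest of the CD4 and CD8 class cells, the 150 Hspa1a-positive cells (64 CD4 and 86 CD8) had higher levels of 5 of the other 9 members by the 1.5-fold rule, beside 3.88% of 10132 genes tested that were higher and 3.02% that were lower. Since the rule that chose the members used this contrast, nothing is read from that count. Hspa1b stood at 0.918 UMIs per 10000 in the positive and 0.0523 in the 4102 negative cells, a ratio of 17.6 (13.1 to 23.3). Hsph1 had a ratio of 4.63 (3.84 to 5.54), Dnajb1 2.62 (2.27 to 3.01), Hsp90aa1 2.59 (2.40 to 2.79) and Hspe1 1.55 (1.39 to 1.73). The remaining members had ratios under 1.5 with intervals above 1, namely Dnaja1 1.39, Hspa8 1.35, Hspd1 1.30 and Hsp90ab1 1.14. By ratio, the Hsp70 copy and its exchange factor came first and the constitutive Hsp90 last. From the undrawn UMIs alone Hspe1 fell below the threshold, at 1.44 (1.26 to 1.65). The positive cells were slightly shallower, with medians of 4528 against 4852.5 UMIs, and had 1.95% against 2.15% mitochondrial UMIs. Of the positive cells 6.67%, and of the negative cells 3.22%, had 2 or more productive TRB chains, a sign of doublets. Without such cells 5 members and 11 immediate early genes were past the fold upward.

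CD4 and CD8 cells gave ratios of a similar order for the leading genes. Hsph1 was 5.31-fold (3.85 to 7.19) higher in the positive CD4 and 4.24-fold (3.35 to 5.32) in the positive CD8 cells, and Hsp90aa1 2.44-fold (2.15 to 2.75) and 2.68-fold (2.44 to 2.94). Dnajb1 and Dnaja1 had intervals that did not overlap between the classes: Dnajb1 was 3.54-fold (2.90 to 4.29) higher in CD4 and 2.03-fold (1.65 to 2.47) in CD8 cells, and Dnaja1 1.72-fold (1.49 to 1.99) and 1.16-fold (up to 1.34). These 2 are the Hsp40 co-chaperones. For Dnajb1, 1 cell held 43 of the 117 UMIs of the positive CD4 cells, and the ratio without it was not computed. With 1 pool neither difference has a replicate check.

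Other parts of the protein quality control system did not move with Hspa1a as a block. Of 30 tested HSF1 targets and co-chaperones outside the members, 2 were past the fold upward and 1 downward, with a median log2 ratio of 0.21 beside 0.01 over all genes tested. Among them, Ahsa2, an Hsp90 activator homologue, was 1.56-fold (1.11 to 2.14) higher, while Hspa14 had a ratio of 0.403 (0.225 to 0.668). Cacybp had 1.39 (1.13 to 1.70), Dnajb6 0.699 (0.590 to 0.824), Bag3, a canonical HSF1 target, 1.55 (0.877 to 2.57) and Hsf1 itself 0.873 (0.577 to 1.27). None of 13 TRiC and prefoldin genes, the cytosolic folding chamber and its helper, and none of 9 mitochondrial chaperones and proteases was past the fold, with medians of 0.02 and 0.01. Bag3, Hsf1, Ahsa2 and the further genes outside the naming rule that appear below were singled out after their values were seen.

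The endoplasmic reticulum has its own stress programme, the unfolded protein response. Of 20 of its genes tested, none was past the fold upward and 4 were downward, with a median log2 ratio of -0.32. These were Xbp1, a transcription factor of that response, at 0.572 (0.443 to 0.727), the luminal co-chaperones Dnajb9 at 0.658 (0.435 to 0.955) and Dnajb11 at 0.632 (0.497 to 0.794), and the degradation adaptor Sel1l at 0.548 (0.338 to 0.842). Herpud1 and Manf had ratios of 0.668 (0.559 to 0.793) and 0.692 (0.593 to 0.803), just short of the threshold, and Hspa5 (BiP), the Hsp70 of this compartment, had 0.786 (0.729 to 0.846). For Canx, Ddit3, Atf4 and Hyou1, at 0.957, 0.947, 0.931 and 0.907, the interval held 1. The summed level of the list was 35.9 UMIs per 10000 in the positive and 44.8 in the negative cells. The 10 oxidative and metal stress genes tested had none past the fold and a median of -0.05.

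Immediate early genes formed the list with most members past the fold upward. They are genes that cells switch on within minutes of a signal or of handling, listed here with a few other genes of dissociation stress such as Klf2. Of 22 tested, 12 were past the fold upward and none downward, with a median log2 ratio of 0.65. Zfp36, which destabilises cytokine mRNA, stood at 8.25 UMIs per 10000 in the positive and 2.15 in the negative cells, a ratio of 3.84 (3.55 to 4.15). Fos was 3.40-fold (3.09 to 3.73), Egr1 3.40-fold (2.92 to 3.94) and Jun 2.72-fold (2.49 to 2.96) higher. The others were Rhob at 2.14, Fosb at 1.97, Dusp1 at 1.93, Egr2 at 3.55, Dusp2 at 1.68, Klf2 at 1.66, Atf3 at 1.61 and Gadd45b at 1.53. Of the Egr2 and Atf3 UMIs of positive cells, 36.8% and 29.0% were in 1 cell. Atf3 had a ratio of 2.37 (1.58 to 3.43) in CD4 but 0.171 (up to 0.964) in CD8 cells, and Klf2 had 2.69 (2.30 to 3.14) and 1.13 (0.956 to 1.33). Egr1 had 5.44 (4.50 to 6.53) in CD4 and 1.87 (1.42 to 2.42) in CD8 cells. The summed level of the list was 133 UMIs per 10000 in the positive and 90.3 in the negative cells. Nr4a1, which is often read as a sign of receptor signalling, had a smaller ratio of 1.41 (1.30 to 1.53). With 1 cell per clonotype the direction of Egr1 turned, to a log2 ratio of -0.10.

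T cell effector genes went along in part. Of 33 tested, 10 were past the fold upward and 4 downward. Ifng, the Th1 cytokine, was 2.03-fold (1.82 to 2.26) higher and Cd69, an early activation receptor, 1.90-fold (1.74 to 2.06). The chemokines Ccl3 and Ccl4 had ratios of 2.95 (2.66 to 3.25) and 2.13 (1.99 to 2.27), but 1 cell held 37.3% and 29.0% of their UMIs in the positive cells, and with 1 cell per clonotype their log2 ratios were -1.21 and -0.92. Il17a, the Th17 cytokine, had no UMI in positive cells and 354 in negative ones, a log2 ratio of -2.03 at most with a floor of 3 UMIs over the positive cells, and Il22 had 1 and 327 UMIs, a ratio of 0.0886 (0.0022 to 0.497). Gzmf, a granzyme, likewise had 0 and 573 UMIs, a log2 ratio of -2.72 at most. Il2ra, the IL-2 receptor alpha chain, had a ratio of 0.594 (0.451 to 0.768). Such UMIs came from few cells, since Gzmf was found in 0.902% of negative cells. With another random draw of UMIs the log2 ratio of Il17a was 1.30.

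Some cycling genes were lower in the positive cells. None of 16 was past the fold upward and 4 were downward, with a median log2 ratio of -0.50. These were Ube2c at 0.459 (0.374 to 0.558), Tpx2 at 0.398 (0.249 to 0.605), Ccna2 at 0.526 (0.403 to 0.675) and Mki67 at 0.551 (0.453 to 0.663), and Cenpf, outside the list, stood at 0.399 (0.272 to 0.565). The replication genes Mcm2, Mcm3 and Rrm2 had ratios of 1.07, 1.06 and 1.02, with intervals that held 1. Without the cycling-like clusters 3 and 9 the log2 ratios of Ube2c, Cenpf and Ccna2 were 0.13, 0.76 and 1.18. The 10 interferon response genes tested had none past the fold.

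Among the remaining named genes, Gadd45g, a growth arrest and stress gene, was 3.95-fold (3.17 to 4.89) higher, Spry1 5.79-fold and Epdr1 4.71-fold (2.47 to 8.35). Id3, an inhibitor of helix-loop-helix factors, was 5.39-fold (3.12 to 8.86) higher, with 63.2% of its positive-cell UMIs in 1 cell. The Gadd45g ratio was 5.97 (4.6 to 7.6) in CD8 but 1.39 (0.772 to 2.33) in CD4 cells. For Spry1 in CD4 and Epdr1 in CD8 cells the interval also held 1. Odc1, the entry enzyme of polyamine synthesis, had a ratio of 0.505 (0.461 to 0.552), Dgat1, of triglyceride synthesis, 0.473 (0.386 to 0.574), the protease inhibitor Serpinb9 0.450 (0.376 to 0.535) and the chemokine Ccl1 0.244 (0.154 to 0.367), whose log2 ratio was 1.74 with another draw of UMIs. Cd83, Fam83d and Cxcl2 had 3, 3 and 1 UMIs in positive cells, with ratios of 0.174 (0.0357 to 0.511), 0.179 (0.0368 to 0.527) and 0.0798 (0.0020 to 0.447). The log2 ratio of Cd83 was 0.65 when Hspa1b in place of Hspa1a set the positive cells, and that of Cxcl2 was 2.82 in cells with no early UMI, as defined below. The highest ratios also included macrophage genes. Apoe was 5.39-fold (4.06 to 7.05), Ccl8 5.92-fold (2.54 to 12.3) and Cd74 3.14-fold (2.70 to 3.62) higher, with 81.2%, 88.9% and 58.0% of their UMIs in 1 positive cell. Of 8 macrophage markers 3 were past the fold upward (C1qa, C1qb and H2-Aa), with a summed level of 1.42 against 0.891 UMIs per 10000 and Adgre1 at 0. Cells with 2 or more of these markers were 3 of 150 positive and 101 of 4102 negative cells, and Hspa1a in such cells stood at 0.174 UMIs per 10000 (0.106 to 0.269), below the level of all kept cells. Without them the log2 ratio of Apoe was -0.72, and their further part in these values was not tested. Neutrophil, plasma cell, fibroblast and erythroid markers had no UMI in the positive cells. Their summed levels in the negative cells were at most 0.0111 UMIs per 10000, so nothing is read from their absence.

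Genes that followed the summed inducible members most closely across all 5333 cells were mostly early genes. Among 7601 genes found in at least 5% of cells, the highest Pearson correlations of log levels, outside the members, were 0.19 for Nr4a1, 0.17 for Fos, 0.16 for Jun, Zfp36 and Jund, 0.15 for Junb and 0.14 for Rhob, Fosb, Ptma and Hnrnpab. The median over the genes compared was 0.0057. All are weak, and the cells share 1 library.

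How far the heat shock genes and the early genes went together was then described by splitting cells on a drawn UMI of Fos, Jun, Egr1 or Zfp36, a split chosen after the values above were seen. Such a UMI was drawn in 120 of 150 Hspa1a-positive cells, 80.0% (72.7 to 86.1), and in 2236 of 4102 negative cells, 54.5% (53.0 to 56.0). The same counts read the other way put Hspa1a in 5.09% (4.24 to 6.06) of cells with and 1.58% (1.07 to 2.25) without an early UMI. These early genes were among the 12 highest in Hspa1a-positive cells. A higher share there follows from their choice, and nothing is read from it. Among cells with an early UMI, 7 of the other 9 members were past the fold upward, beside 2.94% of 9317 genes upward and 3.21% downward. Hsp90aa1 was 2.99-fold (2.75 to 3.24) and Dnajb1 2.81-fold (2.41 to 3.26) higher there.

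Among cells without an early UMI, 30 were Hspa1a-positive and 1866 negative, and the ratios varied between members. Hsph1 kept a ratio of 4.83 (3.14 to 7.15), with 59.3% of its positive-cell UMIs in 1 cell. Hspa1b had 10 UMIs in positive and 24 in negative cells, below the minimum of 50, with a ratio of 26.5 (11.3 to 57.5). Hsp90aa1 had 1.40 (1.14 to 1.72), Dnajb1 1.31 (0.825 to 1.97), Hspa8 1.22 (1.12 to 1.32), Hspe1 1.08 (0.822 to 1.40), Hsp90ab1 a value near 1 (0.910 to 1.10) and Hspd1 0.987 (0.673 to 1.40). Dnaja1 was lower in the positive cells, 0.659 (0.470 to 0.899). The Hsp90aa1, Dnajb1, Dnaja1, Hspe1 and Hsp90ab1 intervals did not overlap those of the cells with an early UMI. Those of Hspa1b, Hsph1, Hspd1 and Hspa8 did overlap. For Dnajb1, 1 cell held 21.6% of the positive-cell UMIs with an early UMI, and 1 cell held 43.5% without. Its ratios without these cells were not computed. Without an early UMI, 1 cell also held 19.8% of the Hsp90aa1, 18% of the Hsp90ab1 and 15% of the Dnaja1 UMIs of positive cells. The positive cells are few and the intervals leave out spread between cells beyond counting, so no separation is read for any member. In this split 3.15% of 9084 genes were past the fold upward and 2.49% downward. The part of dissociation, depth or receptor signalling in this was not tested.

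**Figure D4:**
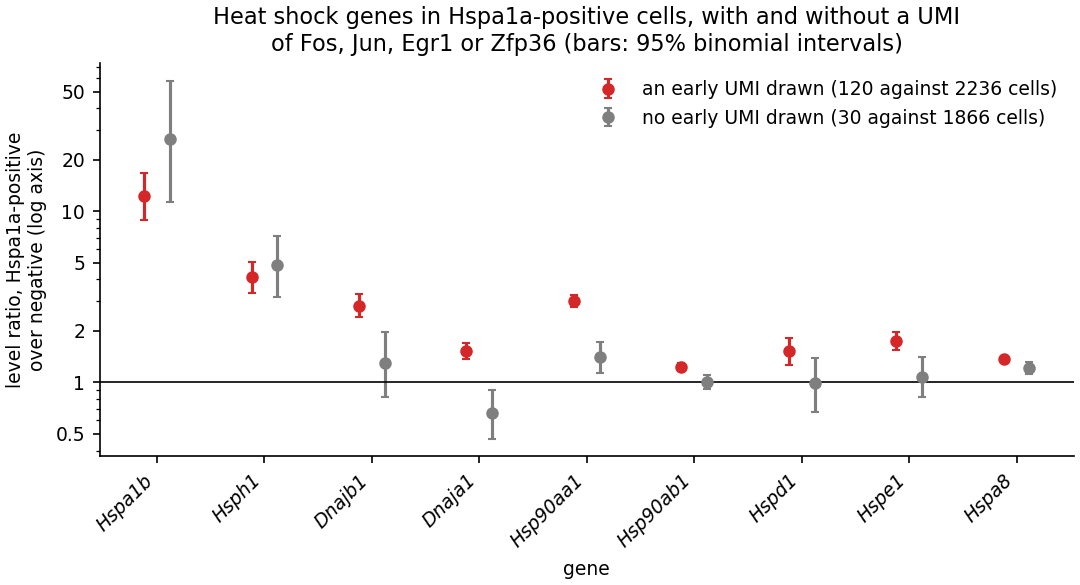
Ratio of levels in Hspa1a-positive over Hspa1a-negative cells of the CD4 and CD8 classes for 9 heat shock genes, on a log axis, among cells with (red) and without (grey) a drawn UMI of Fos, Jun, Egr1 or Zfp36; bars are 95% binomial intervals. Hsp90aa1 stands at 2.99 with and 1.40 without an early UMI, and Dnaja1 at 1.53 and 0.659. The bars cover counting error only, and no separation is read from them.

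Cells were then grouped into 14 clusters from genes that did not include the members or the chaperone and stress lists. A cluster is called after a cell type only where at least 3 of its markers were 2-fold or more above the other cells. Cluster levels are given as a description, since genes that go with the members took part in forming the clusters. Over the 12 clusters with at least 50 cells, the level of Hspa1a spanned 17.1-fold, from 0.147 to 2.51 UMIs per 10000, and that of Hspa1b 17.6-fold. The Hspa1b range rests on 8 UMIs in cluster 9, 50% of them in 1 cell, and 15 in cluster 11. Sparse counts widen such a range, so it is not compared between genes. The range was 3.52-fold for Hsph1, 2.68-fold for Dnaja1, 2.64-fold for Dnajb1, 2.52-fold for Hspd1, 2.01-fold for Hsp90aa1, 1.81-fold for Hsp90ab1, 1.62-fold for Hspe1 and 1.36-fold for Hspa8.

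Hspa1a was highest in cluster 11, with 76 cells, 69 of them of the CD8 class, which was CD8 cytotoxic-like by Cd8a, Cd8b1, Klrd1 and Gzmk. Besides Hspa1a and Hspa1b, its leading genes included Itgae and Cd160, genes of tissue-resident and intraepithelial T cells. Hspa1a was found in 23.7% (14.7 to 34.8) of its cells, at 2.51 UMIs per 10000 (1.98 to 3.12), with 11.4% of its UMIs in 1 cell. At a coarser clustering resolution of 0.4 the highest level of any cluster of at least 50 cells was 0.522. The next clusters were the unnamed cluster 7, mostly of the CD4 class, at 0.704 (0.576 to 0.852) and 7.42% of cells, and cluster 8, CD8 cytotoxic-like, at 0.623 (0.512 to 0.752) and 5.99%. Clusters 7 and 8 overlapped in their intervals. The lowest were Th17-like cluster 2, at 0.147 (0.114 to 0.187) and 1.51%, CD8 cytotoxic-like cluster 1, at 0.210 (0.169 to 0.257) and 1.92%, and cycling-like cluster 9, at 0.220 (0.170 to 0.280) and 0.837%, where 1 cell held 44.6% of the UMIs. Cluster 11 held 9.63% of the Hspa1a-positive and 1.43% of all cells. Without cluster 11, an alternative added after the data were seen, the Hspa1a-positive cells had log2 ratios of 2.19 for Hsph1 and 1.42 for Hsp90aa1, beside 2.21 and 1.37 with it.

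Other members had their highest levels elsewhere. Hsp90ab1, Hsp90aa1 and Hspd1 were highest in the cycling-like cluster 3, mostly of the CD8 class, at 28.8 (28.4 to 29.2), 5.29 (5.13 to 5.45) and 2.36 (2.25 to 2.47) UMIs per 10000. Hsp90aa1 was next in cycling-like cluster 9, at 4.86 (4.61 to 5.12). In these clusters Hspa1a was found in 2.56% and 0.837% of cells, beside 1.51% and 1.92% in clusters 2 and 1, and their median depths were high, 9670 and 11425 UMIs. Cluster 3 also held 10 of the 50 highest Hspa1a cells, more than any other cluster. Dnaja1 and Dnajb1, the Hsp40 genes, were highest in Th2-like cluster 10, at 6.24 (5.77 to 6.73) and 1.92 (1.67 to 2.20), followed by cluster 7, at 4.93 (4.58 to 5.30) and 1.71 (up to 1.93). For Dnajb1 these intervals overlapped, 1 cell held 21.0% of the UMIs of cluster 10, and the share of cells was 18.2% in cluster 10 and 25.5% in cluster 7, so their order is not read. Cluster 11 had Dnaja1 at 2.44 (1.93 to 3.05), among the lowest. Hspa8 and Hspe1 were also highest in cluster 10, at 28.2 (27.2 to 29.3) and 3.70 (3.34 to 4.08), but the intervals of clusters 1 and 11 overlapped that of cluster 10 for Hspa8, and those of clusters 8 and 11 did so for Hspe1.

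**Figure D5:**
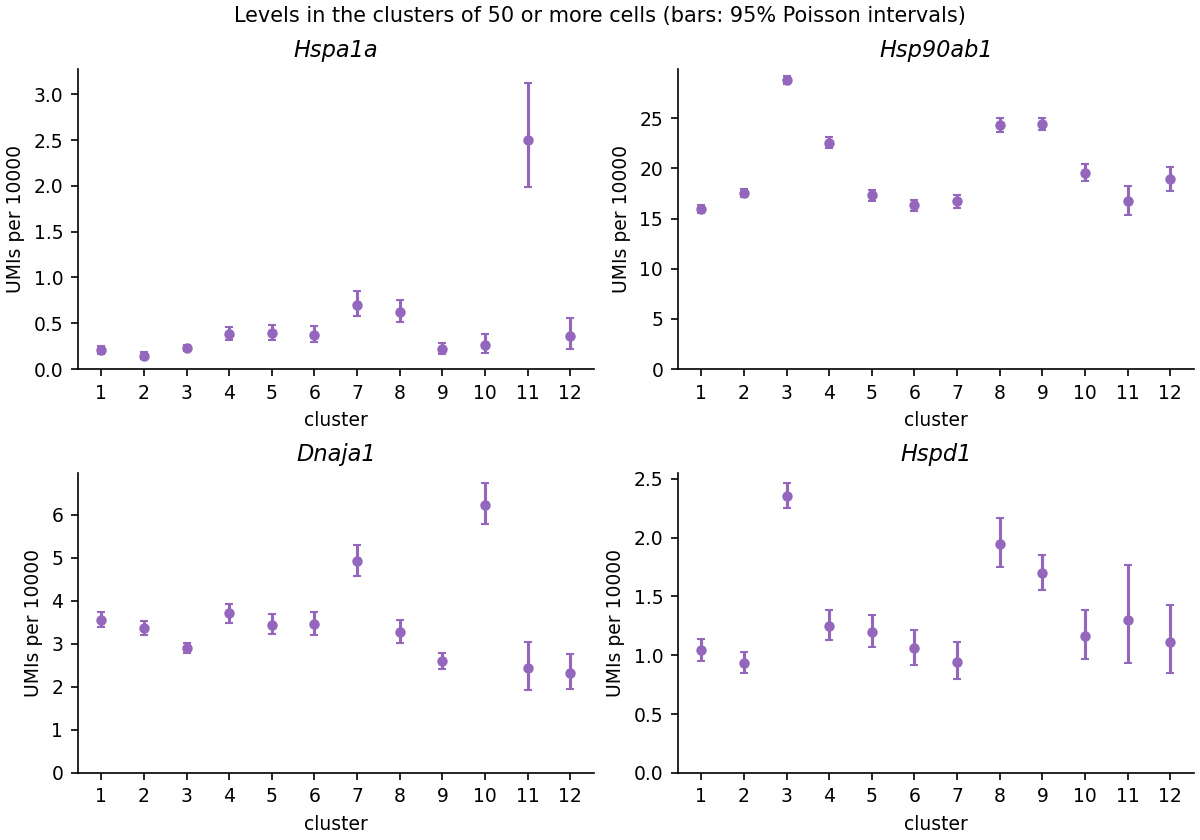
Levels of Hspa1a, Hsp90ab1, Dnaja1 and Hspd1 in UMIs per 10000 (vertical axes, each from 0) in the 12 clusters with at least 50 cells; bars are 95% Poisson intervals. Hspa1a peaks in cluster 11 (2.51), Hsp90ab1 and Hspd1 in cluster 3 (28.8 and 2.36) and Dnaja1 in cluster 10 (6.24).

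Hspa1a-positive cells came from many T cell clones. A clonotype is a set of TCR alpha and beta sequences shared by cells of 1 clone. Of 2628 cells with a resolved clonotype, 78 were Hspa1a-positive, and these belonged to 63 clonotypes, with at most 5 positive cells in any. The largest clonotype had 263 cells, 259 of them of the CD8 class. In it Hspa1a was found in 2 cells, 0.760% (0.0922 to 2.72), at 0.0665 UMIs per 10000 (0.0332 to 0.119), beside 3.60% and 0.312 over all CD8 class cells. Hspa8 stood at 26.7 and Hsp90ab1 at 21.6 in this clonotype, beside 26.1 and 22.1. In the second clonotype, of 88 cells, Hspa1a stood at 0.297, with 66.7% of its UMIs in 1 cell, and in the fourth, of 57 cells, at 0.973 with 70.8% in 1 cell. CD8 cells of expanded clonotypes had Hspa1a in 2.43% (1.58 to 3.57) and CD8 cells of clonotypes seen once in 4.96% (2.59 to 8.50), at 0.198 (0.167 to 0.234) and 0.347 (0.267 to 0.443) UMIs per 10000. For CD4 cells the shares were 2.98% (1.83 to 4.56) and 4.23% (1.95 to 7.87). The intervals of the CD8 levels did not overlap, while those of both pairs of shares did. The expanded CD8 cells include the 259 of the largest clonotype, and their level without these was not computed. Since the level intervals also leave out spread between cells beyond counting, no difference is read from them.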

How the data were processed

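The RNA matrix holds UMI counts per gene and cell barcode, deposited raw as integers. The submitters' processing notes name Cell Ranger and mm10, without a version. The TCR table lists contigs with deposited read and UMI counts, with the authors' chain and CDR3 annotation. Members and gene lists were chosen with earlier results of these data known.

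Barcodes with at least 500 genes and at most 10% mitochondrial UMIs were kept. From each cell 2000 UMIs were drawn without replacement to set shares and Hspa1a-positive cells; levels use all UMIs unless said otherwise. No doublet caller was run; 232 cells with at least 2 productive TRB chains were left out in an alternative. Shares carry Clopper-Pearson, levels Poisson and ratios conditional binomial intervals, at 95%. A gene was past the fold at 1.5-fold with an interval clear of 1, among genes with at least 50 UMIs, and a class at 0 was set to a floor of 3 UMIs. Simulated counts with known ratios were used to test the script. PCR and free RNA are not covered by the intervals.

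The genes named are the members, the 12 highest and 12 lowest by the ratio bound nearest 1 in Hspa1a-positive cells, up to 4 of each list and the 10 most correlated with the inducible sum; TCR, immunoglobulin, mitochondrial, ribosomal protein and predicted genes were left out. The result of 1 named gene is not reported here. Clusters came from 2000 variable genes, 30 principal components, 15 neighbours and Leiden resolution 0.8, and their names were rebuilt here. A clonotype needed 1 productive TRB and at least 1 TRA. Tools were Python 3.11.15, numpy 2.4.6, scipy 1.17.1, pandas 2.3.3, scanpy 1.11.5, leidenalg 0.10.2 and matplotlib 3.10.9. Alternatives covered cell filters, doublets, weighting, thinning, class definitions and resolution.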

Additional observations from a re-analysis of the deposited data

How the results depend on the processing

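No paired analysis was possible because the series has 1 pool of mice, and for the same reason no replicate could be left out. Of 156 alternatives for the counts, sums and shares of the report, 119 stayed within the interval or within 1.5 times and 37 moved, none of them to the other direction where the main value was past its threshold. The cause of each shift was not tested unless the alternative by its construction uses fewer cells or another threshold.

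Between CD4 and CD8 cells, 780 genes were past the fold higher and 664 lower, and the log2 ratios of the inducible and constitutive sums were -0.0049 and -0.12. These were 431, 417, -0.075 and -0.17 with 1 cell per clonotype. With a lower fold threshold they were 1263 and 1342 genes and 1 member, Hsph1. The sums were 0.084 and -0.10 with cells weighted alike, -0.10 and -0.11 with Dnaja1 and Hsp90aa1 counted as constitutive, and 0.072 and -0.087 without cycling-like clusters 3 and 9. The constitutive sum was -0.095 with at least 2 lineage UMIs. Hspa1a was found in 2.26% of CD4 and 2.43% of CD8 cells with 1000 UMIs drawn and in 5.80% and 5.73% without thinning. After the 50 cells with most Hspa1a and Hspa1b UMIs were left out, the next 50 held 39.2% of the Hspa1a UMIs that remained.

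For Hspa1a-positive cells, 393 genes were higher and 306 lower, with sums of 1.19 and 0.34. With 1 cell per clonotype, 231 were higher and 125 lower and the inducible sum was 1.34. Without the highest cell of each gene, 146 were higher and 619 lower, with sums of 1.05 and 0.28. The sums were 1.61 and 0.41 with at least 2 Hspa1a UMIs and 1.43 and 0.40 with 1000 UMIs drawn. The constitutive sum was 0.26 with another seed and the inducible one 1.11 from undrawn UMIs. In cells with no early UMI, 2 members (Hsph1 higher and Dnaja1 lower) and 2 immediate early genes (both higher) were past the fold and the sums were 0.36 and 0.15. At resolution 0.4 the highest Hspa1a level of a cluster was 0.522.

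In Hspa1a-positive cells the members Hspa1b, Hsph1, Dnajb1, Hsp90aa1, Hspe1 and Hspa8 were above 0 in log2 in each alternative run. The lowest values of the others were -0.60 for Dnaja1 in cells with no early UMI, -0.13 for Hsp90ab1 with 1 cell per clonotype and -0.099 for Hspd1 with Hspa1b in place of Hspa1a. Among the other named genes, values past the threshold turned direction 22 times. Apoe had log2 ratios of -0.72 without macrophage-marker cells, -0.77 with at least 2 Hspa1a UMIs, -0.82 with Hspa1b in place of Hspa1a and -2.23 with another seed. With 1 cell per clonotype they were -0.10 for Egr1, -2.91 for Cd74, -1.21 for Ccl3 and -0.92 for Ccl4. Ccl8 had -0.31 without its highest cell and Cd74 -3.13 with at least 2 Hspa1a UMIs. With Hspa1b in place of Hspa1a they were -1.95 for Cd74, 3.87 for Ccl1, 0.65 for Cd83, 0.16 for Ube2c, 0.34 for Cenpf and 0.27 for Tpx2. Another seed gave 1.30 for Il17a and 1.74 for Ccl1. Without the cycling-like clusters they were 0.13 for Ube2c, 0.76 for Cenpf and 1.18 for Ccna2, and Cxcl2 had 2.82 in cells with no early UMI. A further 30 alternatives gave no value, because both classes were at or under the floor. The split by early UMIs and those without cluster 11 or the cycling-like clusters were chosen after the data were seen.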

Other observations

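Cells with UMIs of both Cd4 and a Cd8 gene had the highest Hspa1a level of the classes, 0.553 UMIs per 10000 (0.470 to 0.647), and their median depth was 7939 UMIs. In this class 1 cell held 29 of the 157 Hspa1a UMIs. The share of its cells with Hspa1a, 4.98% (2.82 to 8.09), overlapped in interval with the CD4 and CD8 classes. Whether these cells are doublets was not tested. Cells with neither had a level of 0.212 (0.168 to 0.264) at a median of 3955 UMIs. The genes with the lowest correlation with the inducible sum across cells were AW112010 (-0.13), Tmsb4x (-0.12), which encodes thymosin beta 4, and Cd52 (-0.11).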
